A study of Mus musculus with 4 samples.

Results

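The interleukin-1 family genes examined were the agonists Il1a and Il1b, the receptor antagonist Il1rn, the receptors Il1r1 and Il1r2, the receptor accessory protein Il1rap, and the related cytokine Il18 with its binding protein Il18bp. They were chosen by name, as every probe set whose single gene symbol in the platform annotation is one of these, which gave 15 probe sets for 8 genes, out of 34945 probe sets with 1 symbol for 18193 genes. Gene expression was measured with Affymetrix mouse genome arrays in thioglycollate-elicited peritoneal macrophages, the adherent part of the exudate that an irritant draws into the peritoneal cavity. KO denotes LysM Cre/+:Setdb1 fl/fl mice and WT denotes +/+:Setdb1 fl/fl mice of the strain labelled C57BL6/J, so that both genotypes carried floxed Setdb1 alleles and KO alone carried Cre. The lysozyme M gene that drives Cre is active in macrophages and in neutrophils, so that deletion may also occur in neutrophils. Cells of each genotype received lipid A, the part of lipopolysaccharide that activates the receptor TLR4, or vehicle for 4 h. The 4 groups were thus KO lipid A, WT lipid A, KO vehicle and WT vehicle, with 1 array in each (n = 1), so that no difference between them has a replicate check and no statistical test was possible. The age of the mice and the number of mice behind an array are not given in the sources used here, and the concentration of lipid A is 10 ng/ml in the design of the series but 10 µg/ml in the protocol of the samples. The comparison of KO and WT addresses the part of Setdb1, an enzyme that methylates histone H3, in the response to TLR4.

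Interleukin-1α and interleukin-1β act through the type 1 receptor Il1r1, which pairs with Il1rap and passes the signal through Myd88 to NF-κB. Il1rn occupies this receptor without a signal, and Il1r2 takes up the ligand as a decoy. Interleukin-1β and interleukin-18 are made as precursors that caspase-1 cuts once an inflammasome has formed, and Il18bp keeps free interleukin-18 from its receptor. In macrophages the agonist genes are nearly silent at rest and are switched on within hours by TLR4.

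Values are linear signals of probe sets. Over all probe sets except controls, the median signal was 75.8 for KO lipid A, 74.8 for WT lipid A, 84.2 for KO vehicle and 65.1 for WT vehicle, and a signal below the median of its array was raised to it before a log2 difference was taken. A fold against such a signal is given as a lower bound ("at least"), and none is given where the bound would be under 1 or where both signals lay below the median. A gene was compared where at least 1 of its arrays reached the median, and it was represented by its brightest probe set on the mean log2 scale. It was called where the difference was over 2-fold for lipid A, or over 3-fold between KO and WT and between their responses. Within a gene, the log2 differences of its probe sets had an SD of 0.46 for the lipid A response of KO, 0.39 for that of WT, 0.41 for KO over WT with lipid A and 0.42 with vehicle. That spread is technical and leaves out mice and arrays.

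Setdb1 itself gave 386 for KO lipid A, 521 for WT lipid A, 346 for KO vehicle and 589 for WT vehicle by 1 of its 3 probe sets, the other probe sets being below the median of every array, and whether that probe set lies in the deleted part is not known here. Of 9 macrophage markers, 9 reached the median on each array, with summed signals of 198679 for KO lipid A, 224208 for WT lipid A, 174369 for KO vehicle and 201520.4 for WT vehicle. Between genotypes 0 of 9 were called on either treatment, near the share of all genes given below. The widest gaps were those of Cd14 under lipid A (1.97-fold higher in KO) and Adgre1 under vehicle (2.73-fold lower in KO). Markers of other cells were also present, and some differed between the genotypes. Of all genes compared, 1.28% were over 3-fold higher and 0.657% lower in KO under lipid A, and 1.20% and 0.621% under vehicle. The summed signal of 10 markers of resident large peritoneal macrophages, a population that lives in the cavity before the irritant, was 3999 for KO lipid A, 732 for WT lipid A, 4195 for KO vehicle and 764 for WT vehicle, and 6 of 6 markers compared under lipid A and 6 of 7 under vehicle were over 3-fold higher in KO. For B cell markers, 9 of 10 with a probe set, the sums were 4687 for KO lipid A, 658 for WT lipid A, 4645 for KO vehicle and 567 for WT vehicle, and 3 of 7 compared under lipid A and 5 of 8 under vehicle were over 3-fold higher in KO. Neutrophil markers, 10 of 12 with a probe set, summed to 2728 for KO lipid A, 5095 for WT lipid A, 2521 for KO vehicle and 6299 for WT vehicle, with S100a9 and Cxcr2 below the median on every array. Of these, 1 of 5 compared under lipid A (Mmp8) and 2 of 7 under vehicle (Mmp8 and S100a8) were over 3-fold lower in KO and 0 were higher, while Csf3r, with 1583 for KO lipid A and 731 for WT lipid A, had the opposite order (2.16-fold). T and NK cell markers summed to 749 for KO lipid A, 350.5 for WT lipid A, 806 for KO vehicle and 229 for WT vehicle, and 2 of 3 compared under vehicle (Cd3d and Cd2) were over 3-fold higher in KO. Under lipid A 0 of 6 compared were called between genotypes. Those of mast cells, basophils and eosinophils summed to 502 for KO lipid A, 219 for WT lipid A, 659.6 for KO vehicle and 406 for WT vehicle, with 0 called between genotypes. Fibroblast and mesothelium markers summed to 931 for KO lipid A, 1515 for WT lipid A, 908 for KO vehicle and 1695 for WT vehicle, and 1 of 6 compared under vehicle (Dcn, 4.02-fold) was lower in KO. Of 8 compared under lipid A, 0 were called between genotypes. No marker was listed at 0. In RNA of whole cultures, fewer cells of a type and less RNA per cell cannot be told apart, and the part of these cells in the differences below was not tested.

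Both agonists were far higher with lipid A in KO than in WT. Il1b, which encodes interleukin-1β, gave 43071 for KO lipid A, 1019.6 for WT lipid A, 18.1 for KO vehicle and 81.6 for WT vehicle. KO lipid A stood alone at the top, WT lipid A was intermediate, WT vehicle was just above the median of its array and KO vehicle was below it. Il1b was at least 512-fold higher with lipid A than vehicle in KO and 12.5-fold higher in WT, and under lipid A it was 42.2-fold higher in KO, at log2 5.40 the largest of 12335 genes compared. Without lipid A no fold can be given, since the KO signal was below the median of its array, 84.2, and the WT signal of 81.6 did not exceed that median. As measured, KO was 4.51-fold lower under vehicle, by a signal near background. The response to lipid A was at least 41.0-fold larger in KO than in WT (log2 5.36), second of 13567 genes.

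Il1a, which encodes interleukin-1α, gave 31148 for KO lipid A, 2605 for WT lipid A, 224 for KO vehicle and 426 for WT vehicle. All 4 signals exceeded the median of their array, so each of its folds is measured. It was 139-fold higher with lipid A than vehicle in KO and 6.12-fold higher in WT, and 12.0-fold higher in KO than in WT under lipid A (log2 3.58, rank 14 of 12335). Under vehicle the order of the genotypes was the opposite, Il1a being 1.90-fold lower in KO (log2 -0.93), beyond the technical SD of 0.42 but under the 3-fold threshold. Its response was 22.7-fold larger in KO (log2 4.51, rank 4 of 13567).

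The genes of both agonists lie next to each other on the minus strand of chromosome 2. Their promoters are shown because these were the members with the largest response in KO. The stretches run 5′ to 3′ over the 250 bases before the start site, at chr2:129371140-129371389 for Il1b and chr2:129309973-129310222 for Il1a (minus strand, GRCm38.p6, sequence and start sites from RefSeq), with motif matches in capitals.
Il1b: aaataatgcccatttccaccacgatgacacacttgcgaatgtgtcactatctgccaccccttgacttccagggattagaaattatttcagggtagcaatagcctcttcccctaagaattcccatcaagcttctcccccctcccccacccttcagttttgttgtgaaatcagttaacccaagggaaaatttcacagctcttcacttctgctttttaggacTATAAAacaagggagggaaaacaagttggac
Il1a: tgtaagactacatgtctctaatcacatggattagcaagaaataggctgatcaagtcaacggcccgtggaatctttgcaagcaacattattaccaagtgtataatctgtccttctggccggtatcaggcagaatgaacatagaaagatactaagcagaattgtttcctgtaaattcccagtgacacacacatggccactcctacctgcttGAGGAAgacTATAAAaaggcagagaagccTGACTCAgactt
Searched on both strands in windows of 250 bases before and 50 after each start were TATAAA, the TATA box, TGANTCA, the site of AP-1, TTNNGCAA, a form of the C/EBP site, GAGGAA, the core that PU.1 binds, and the NF-κB consensus by name. No 2 of the matches in these stretches overlap. TATAAA began 31 bases before the start of Il1b and 32 bases before that of Il1a. It was found in 13.6% of 32851 RefSeq promoter windows at any place, and in 1.73% on the forward strand between 36 and 26 bases before the start, a range set after these matches were seen. The Il1a window also held TGACTCA from base -12 and GAGGAA from base -41, motifs found in 7.81% and 28.3% of windows. The other 6 members had 9 windows. One window of Il1rn held an AP-1 match, another of Il1rn and that of Il18 a TATA match on the reverse strand, Il18bp and one window of Il1r1 a C/EBP match (10.8% of windows), and the other window of Il1r1 an NF-κB match (8.46%). Windows of Il1r2 and Il1rap held none of the 5 motifs. A match of letters is a description and says nothing of binding.

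**Figure D1:**
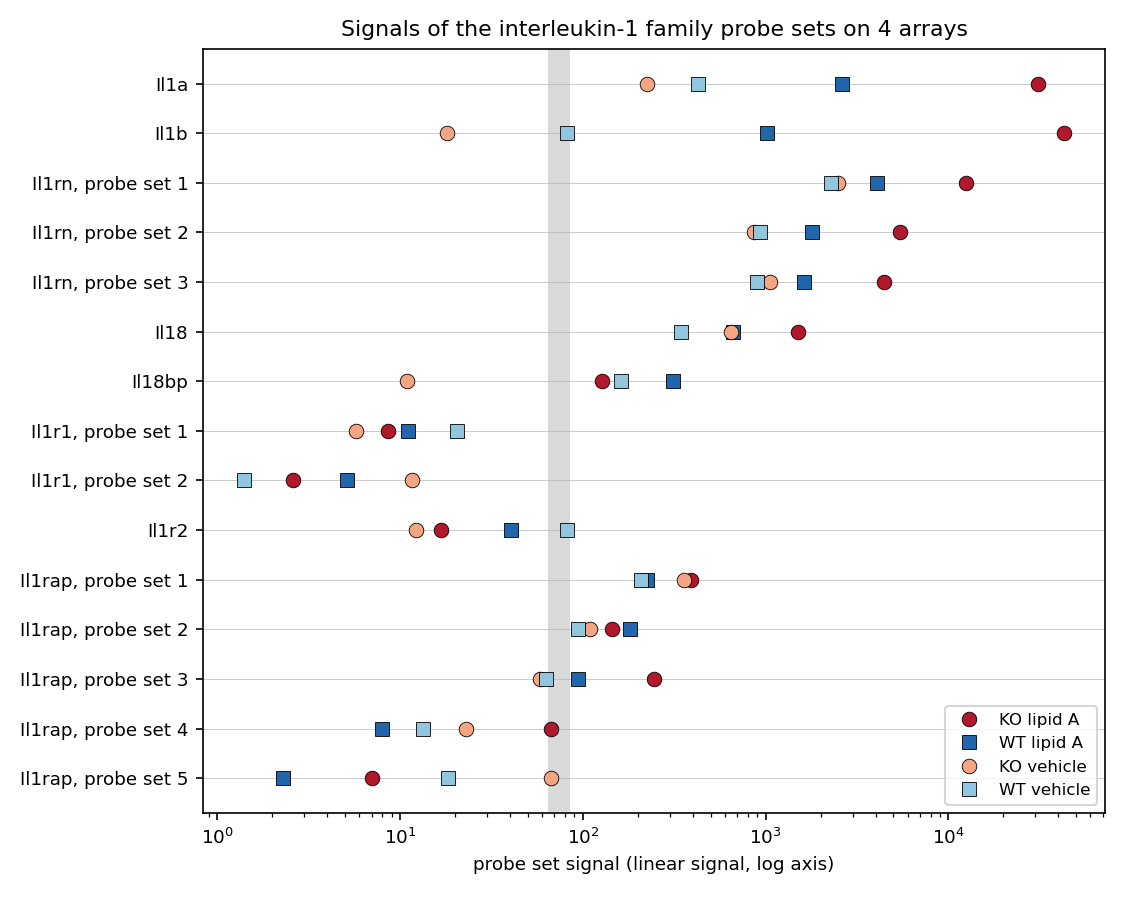
Signals of the 15 probe sets of the 8 genes on each of the 4 arrays (log axis, linear probe set signal, 1 point per array, circles KO and squares WT). The grey band spans the medians of the arrays, from 65.1 to 84.2. Il1a, Il1b and the 3 probe sets of Il1rn are highest in KO lipid A, and both probe sets of Il1r1 lie below the band on every array.

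The antagonist gene was also higher in KO lipid A, by less than the agonists. Il1rn gave 12533 for KO lipid A, 4065 for WT lipid A, 2499 for KO vehicle and 2269 for WT vehicle by its brightest probe set. It was 5.02-fold higher with lipid A than vehicle in KO and 1.79-fold higher in WT, and KO exceeded WT 3.08-fold under lipid A (log2 1.62) and 1.10-fold under vehicle. KO lipid A thus stood above the other arrays, and the vehicle arrays lay within the technical spread of each other. A further probe set gave 5441 for KO lipid A, 1803 for WT lipid A, 869 for KO vehicle and 927 for WT vehicle, with 3.02-fold between KO and WT under lipid A. The remaining one gave 4431 for KO lipid A, 1623 for WT lipid A, 1054 for KO vehicle and 895 for WT vehicle, or 2.73-fold, so that 2 of the 3 probe sets of Il1rn passed the 3-fold threshold. The call was lost with quantile normalization (log2 1.57) and with scaling to Rplp0 (log2 1.49), which put the difference below 3-fold. Agonist and antagonist did not move in proportion. The log2 difference of KO over WT under lipid A was larger by 3.78 for Il1b than for Il1rn, which is 13.7-fold, and larger by 1.96 for Il1a than for Il1rn, or 3.88-fold. In WT the response to lipid A was 6.97-fold larger for Il1b and 3.42-fold larger for Il1a than for Il1rn, and in KO it was at least 102-fold and 27.7-fold larger.

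Il18, the interleukin that acts with interleukin-12 to raise interferon-γ in lymphocytes, differed between genotypes on both treatments. It gave 1514 for KO lipid A, 660.1 for WT lipid A, 649.6 for KO vehicle and 344 for WT vehicle. The KO signal was 2.29-fold above WT with lipid A (log2 1.20) and 1.89-fold above it with vehicle (log2 0.92), both outside the technical SD and under the 3-fold threshold. Lipid A gave 2.33-fold in KO and 1.92-fold in WT, so that KO vehicle and WT lipid A had almost the same signal and the responses differed by 1.21-fold. Il18bp had the opposite order. Its signals were 128 for KO lipid A, 312 for WT lipid A, 10.9 for KO vehicle and 161 for WT vehicle. KO was 2.44-fold lower under lipid A (log2 -1.29) and at least 1.91-fold lower under vehicle, where the KO signal did not reach the median of its array. With lipid A, Il18bp was at least 1.52-fold higher in KO and 1.94-fold higher in WT. The sign of its response difference depended on the weak vehicle signal, being -0.35 on the log2 scale with that signal raised to the median and 2.59 as measured. Set beside each other, the log2 difference of KO over WT was larger for Il18 than for Il18bp by 2.49 under lipid A (5.60-fold) and by at least 1.86 under vehicle (3.62-fold).

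Receptor genes gave weak signals. Both probe sets of Il1r1, the signaling receptor, lay below the median on all 4 arrays, with 8.62 for KO lipid A, 11.0 for WT lipid A, 5.74 for KO vehicle and 20.4 for WT vehicle for the brighter. The second ranged from 1.40 to 11.7. Il1r1 therefore passed no filter in any comparison, and no fold is given. Il1r2, the decoy, gave 16.7 for KO lipid A, 40.5 for WT lipid A, 12.2 for KO vehicle and 82.2 for WT vehicle. Only WT vehicle reached its median, at least 1.10-fold above WT lipid A, and no fold between genotypes can be given.

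Il1rap, the accessory chain shared by the receptors of interleukin-1, interleukin-33 and interleukin-36, gave 391 for KO lipid A, 225 for WT lipid A, 357 for KO vehicle and 209 for WT vehicle. Lipid A moved it 1.10-fold in KO and 1.08-fold in WT, within the technical spread, whereas KO was 1.74-fold higher with lipid A and 1.71-fold higher with vehicle. Its probe sets disagreed. The next brightest gave 144 for KO lipid A, 181 for WT lipid A, 109.7 for KO vehicle and 94.5 for WT vehicle, or 1.26-fold lower in KO under lipid A. The third gave 244 in KO lipid A and 93.7 in WT lipid A with both vehicle signals below the median, or 2.60-fold higher in KO than in WT under lipid A. The other 2 probe sets were below the median on every array, at most 67.4. Which transcripts each probe set detects was not tested.

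**Figure D2:**
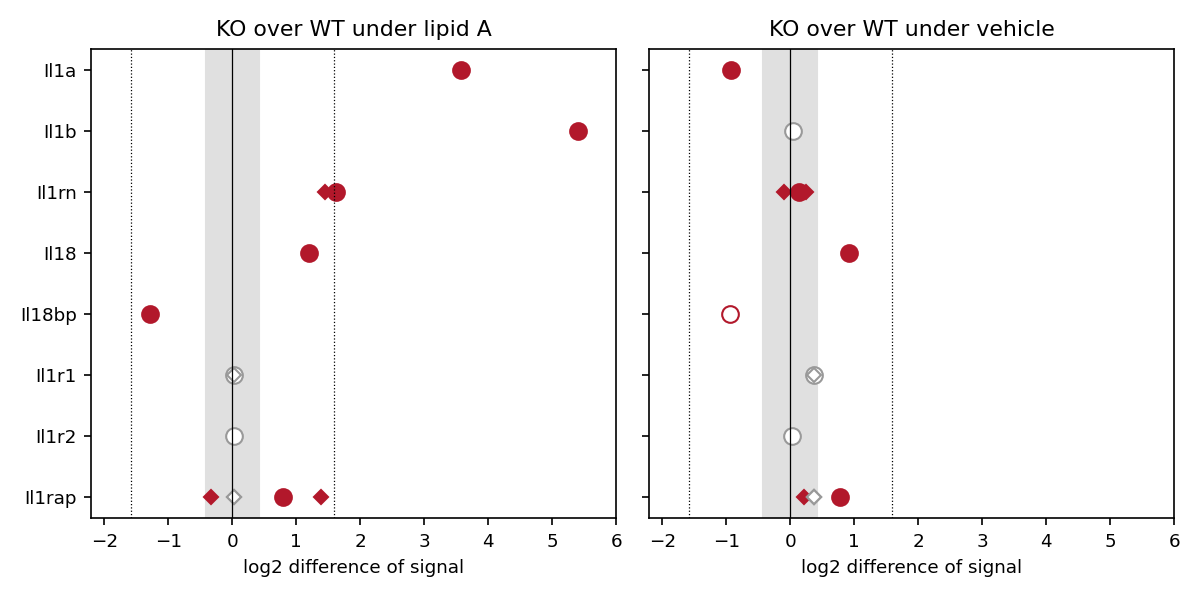
Log2 difference of KO over WT under lipid A and under vehicle for each gene (circles, the probe set that represents the gene, and diamonds, its further probe sets). Filled symbols are measured, open red symbols are bounds, open grey symbols have no fold, the grey band is the technical SD on either side of 0 and dotted lines mark 3-fold. Il1b and Il1a lie far to the right under lipid A, at 5.40 and 3.58, and Il18bp to the left, at -1.29.

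Counted over the family, 6 of 8 genes were compared for lipid A in KO, and 4 were over 2-fold higher (Il1a, Il1b, Il1rn and Il18) and 0 lower, while 5.65% of the 12306 genes compared were higher and 9.78% lower. For lipid A in WT, 2 of 7 compared were higher (Il1a and Il1b) and 0 lower, against 5.70% and 3.77% of 12143 genes. The members' median log2 difference was 1.77 in KO and 0.94 in WT, and that of all genes compared was -0.19 in KO and -0.04 in WT. Between KO and WT under lipid A, 3 of 6 compared were over 3-fold higher (Il1a, Il1b and Il1rn) and 0 lower, with 1.28% of 12335 genes higher and 0.657% lower, and medians of 1.41 for the members and -0.01 for all genes. Under vehicle 0 of 7 compared were higher and 0 lower, where 1.20% of 12087 genes were higher and 0.621% lower, and the medians were 0.04 for the members and 0.13 for all genes. With signals taken as measured 3 members were over 3-fold lower in KO under vehicle (Il1b, Il18bp and Il1r2), each with a KO signal below the median. Of all 12002 genes compared so, 438 were lower. The response differed over 3-fold for 2 of 7 compared (Il1a and Il1b, larger in KO), and 1.02% of 13567 genes had a larger and 1.66% a smaller response in KO, with medians of 0.28 for the members and -0.18 for all genes. Il1rn, at log2 1.49, lay just under the threshold and passed it with arrays centred on their medians (1.84) and with its second brightest probe set (1.69), and Il18bp passed it with signals as measured (2.59). A member could pass the filter through the array where it was high, so these counts describe the genes measured above background and not the whole family. The comparisons share arrays and are no independent repeats of each other.

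**Figure D3:**
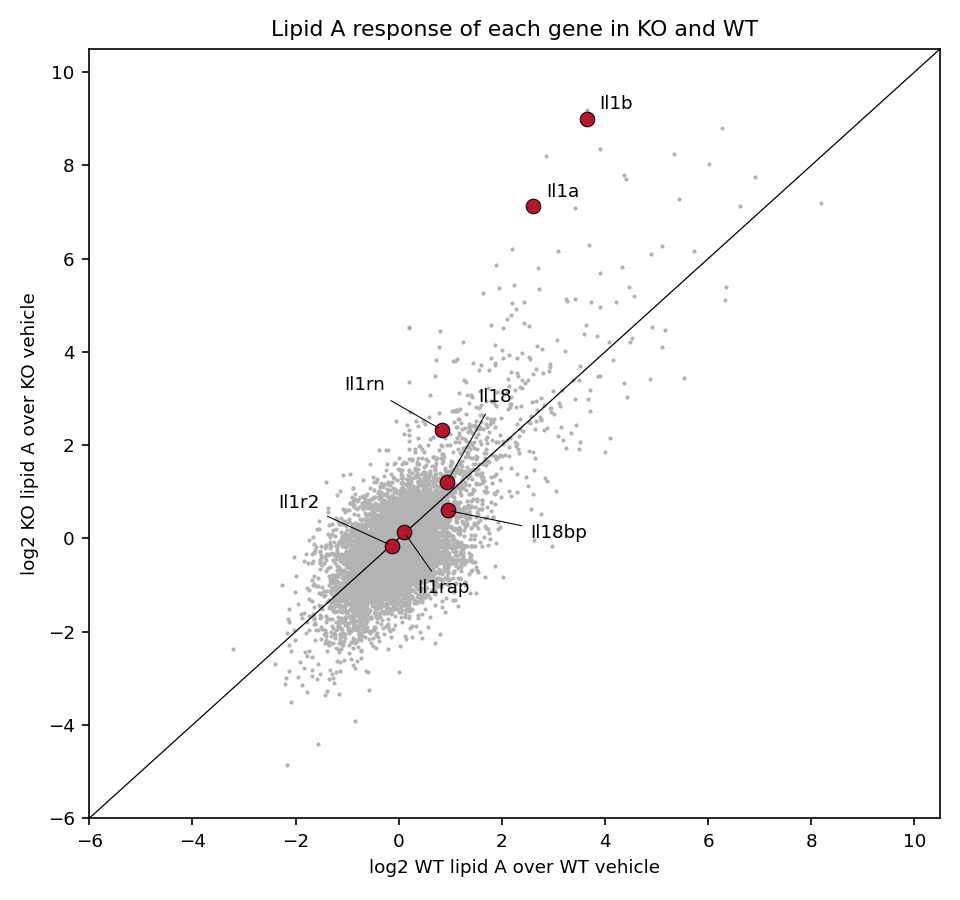
Log2 response to lipid A in KO (vertical axis) against WT (horizontal axis) for all genes compared (grey) and the members (red), with weak signals raised to the array median and the line of equal response. Il1b (at least 512-fold in KO, 12.5-fold in WT) and Il1a (139-fold in KO, 6.12-fold in WT) lie far above the line, and Il18, Il18bp, Il1r2 and Il1rap lie near it.

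The pattern over the 4 arrays was set beside that of every other gene by the root mean square distance between log2 signals raised to the array median, each gene centred on its own mean, so that a signal below the median counts as equal to it. For Il1b, the 5 closest of 13566 genes were Ccl2 (distance 0.62), Il6 (1.03), Il1a (1.03), Il12b (1.09) and Cxcl1 (1.18). These encode the chemokines that draw monocytes and neutrophils, interleukin-6, interleukin-1α and a subunit of interleukin-12. Ccl2 gave 28749 for KO lipid A, 2036 for WT lipid A, 88.3 for KO vehicle and 137 for WT vehicle, and was 14.1-fold higher in KO than in WT under lipid A. The closest to Il1a were Il12b (0.51), Plagl1 (0.51) and Socs3 (0.54), of which Socs3, a feedback inhibitor of cytokine receptors, gave 14394 for KO lipid A, 2484 for WT lipid A, 195 for KO vehicle and 545 for WT vehicle. Il12b was below the median on both vehicle arrays and Il6 on that of WT, as Il1b was on that of KO. Among genes at or above the median on all 4 arrays, Il1rn was closest to Oaf (0.12) and Fnbp1l (0.13). Tslp came to 0.09 only with its vehicle signals, 1.19 for KO and 8.57 for WT, raised to the median, and its likeness to Il1rn is not measured. Il18 was closest to Samsn1 (0.10), Jarid2 (0.10) and Zfp36 (0.13). With 4 arrays such distances describe these arrays only.

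The genes that flank the agonists differed less between the genotypes under lipid A than the agonists did, for the nearest as far as their weak signals show. In gene order along chromosome 2, Ckap2l lies on one side of Il1a and Il1b and Il1bos, transcribed from the opposite strand of Il1b, on the other. Ckap2l, a gene of the mitotic spindle, gave 174 for KO lipid A, 53.5 for WT lipid A, 105 for KO vehicle and 72.6 for WT vehicle, at least 2.32-fold higher in KO under lipid A (log2 1.22 or more) and 3.25-fold as measured, since the WT signal was below its median. Il1bos gave 142 for KO lipid A, 91.1 for WT lipid A, 5.03 for KO vehicle and 4.30 for WT vehicle, with a log2 difference under lipid A of 0.64. The next genes outward, Slc20a1 beyond Ckap2l and Sirpa beyond Il1bos, were above the median on all 4 arrays. Slc20a1 gave 2313 for KO lipid A and 1658 for WT lipid A, 1.40-fold higher in KO. Sirpa gave 11304 for KO lipid A and 16479 for WT lipid A, 1.46-fold lower in KO. Over the 24 neighbours of all members that are not themselves members, the 2 nearest with a probe set on each side, 0 of 18 compared were called higher or lower in KO under lipid A with weak signals raised to the median, and their median log2 difference was -0.04. As 1.28% of all genes were higher and 0.657% lower, 0 of 18 is near the background and is no result about the neighbours. With signals as measured, a choice made after these values were seen, 1 was over 3-fold higher (Ckap2l) and 1 lower (Il1f5, 3.20-fold). Of all 12335 genes compared so, 783 were higher and 707 lower. With lipid A in KO 2 of 18 were over 2-fold higher and 2 lower, beside 5.65% and 9.78% of all genes. Under vehicle 1 of 16 compared was called between genotypes, beside 1.20% of all genes higher and 0.621% lower. It was Il1rl2, the receptor of interleukin-36 and the neighbour of Il1r1 on chromosome 1, at least 5.10-fold lower in KO. That value rests on 1 of its 2 probe sets, the other being below the median on every array. As measured 2 were higher under vehicle (Il18r1 and Cldn16) and 2 lower (Il1f5 and Il1rl2), where 754 of 12002 genes were higher and 438 lower.

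**Figure D4:**
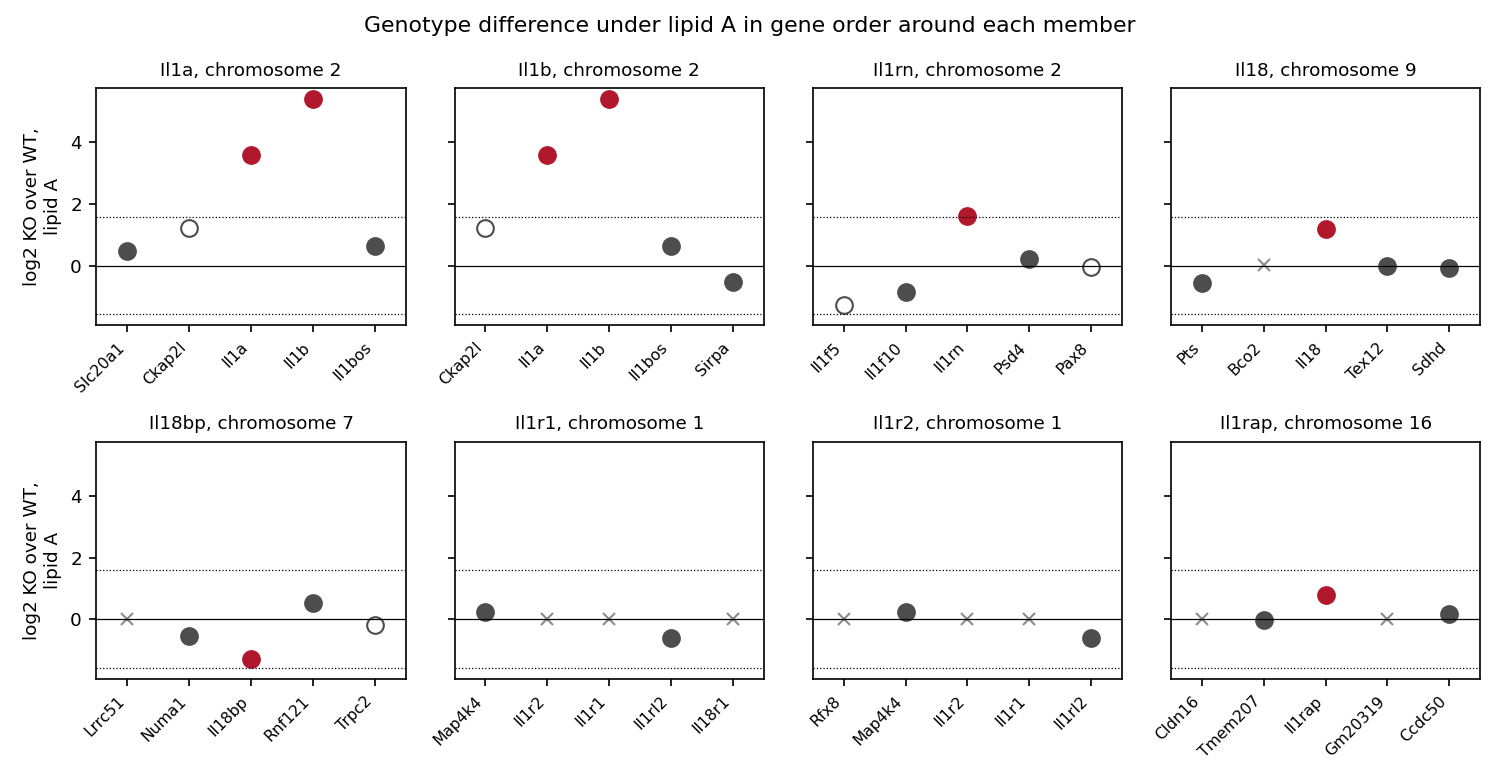
Log2 difference of KO over WT under lipid A for each member (red) and its 2 nearest measured genes on each side in gene order (dark grey, equal spacing and not to genomic scale). Filled circles are measured, open circles are lower bounds of the size or have no fold, crosses were not compared, and dotted lines mark 3-fold. Il1a (3.58) and Il1b (5.40) lie beyond 3-fold side by side, and Ckap2l next to Il1a is a bound at 1.22.

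Other ligands of the family, 6 of 6 with a probe set, gave 0 calls of higher in KO than in WT on either treatment. As few of all genes were called higher (1.28% under lipid A and 1.20% under vehicle), this is no result about the list. Il1f9, the older symbol of interleukin-36γ, gave 149 for KO lipid A, 515 for WT lipid A, 43.2 for KO vehicle and 167 for WT vehicle. It was 3.08-fold higher with lipid A than vehicle in WT, and 3.45-fold lower in KO than in WT under lipid A. Il1f10, the gene of interleukin-38, gave 117 for KO lipid A, 213 for WT lipid A, 84.1 for KO vehicle and 26.8 for WT vehicle, at least 3.27-fold higher with lipid A than vehicle in WT. Il1f5, the older symbol of the antagonist at the interleukin-36 receptor, gave 57.4 for KO lipid A, 184 for WT lipid A, 23.9 for KO vehicle and 96.8 for WT vehicle, below the median in KO on both treatments, so that it was at least 2.42-fold lower in KO under lipid A. Il33, Il1f6 and Il1f8 reached at most 123 on any array. With lipid A 2 of 5 compared were over 2-fold higher in WT (Il1f9 and Il1f10) and 0 of 5 in KO, beside 5.70% and 5.65% of all genes. Between genotypes 1 of 5 was over 3-fold lower in KO under lipid A (Il1f9), beside 0.657% of all genes. The median log2 difference was -0.87 beside -0.01 for all genes.

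Among the other receptors, 6 of 7 with a probe set, Il1rl2 gave 233 for KO lipid A, 359.9 for WT lipid A, 29.0 for KO vehicle and 429 for WT vehicle. It was high in WT on both treatments and low in KO vehicle alone, so that it was at least 2.77-fold higher with lipid A than vehicle in KO, and its response differed over 3-fold between KO and WT. These values rest on 1 of its 2 probe sets, the other being below the median on every array, at most 42.8. Il18r1, the ligand-binding chain for interleukin-18, gave 53.6 for KO lipid A, 52.0 for WT lipid A, 179 for KO vehicle and 42.3 for WT vehicle, so that KO vehicle was the one array above its median. Sigirr, an inhibitory member of the receptor family, gave 144 for KO lipid A, 155 for WT lipid A, 66.5 for KO vehicle and 68.3 for WT vehicle and was 2.27-fold higher with lipid A than vehicle in WT. Under lipid A 0 of 3 receptors compared were called between the genotypes, and their median log2 difference was -0.62. As 1.28% of all genes were higher and 0.657% lower, 0 of 3 is no result about the list. Il18rap, with 22.4 for KO lipid A and 136 for WT lipid A, has only a bound of at least 1.79-fold lower in KO. Its other probe set had the opposite order, with 63.2 for KO lipid A and 7.26 for WT lipid A, both below the median.

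Of the genes of processing and release, 18 of 20 had a probe set and were compared. With lipid A 6 of 18 were over 2-fold higher in KO and 4 of 18 in WT, beside 5.65% and 5.70% of all genes, 0 were lower in either, and their median log2 difference was 0.08 in KO and 0.06 in WT. Nlrp3, the sensor of an inflammasome, gave 2822 for KO lipid A, 1413 for WT lipid A, 77.9 for KO vehicle and 107 for WT vehicle, at least 33.5-fold higher with lipid A than vehicle in KO and 13.2-fold in WT. Its 2.00-fold difference under lipid A was below the threshold. Casp4, the caspase that senses cytosolic lipopolysaccharide and is named caspase-11 in mice, was 11.5-fold higher with lipid A than vehicle in KO and 6.05-fold in WT, with 7112 for KO lipid A, 5442 for WT lipid A, 618 for KO vehicle and 899.9 for WT vehicle. Casp1, which cuts the precursors of interleukin-1β and interleukin-18, gave 6969.7 for KO lipid A, 7664 for WT lipid A, 3196 for KO vehicle and 4759 for WT vehicle, 1.10-fold lower in KO under lipid A. The caspase that matures the cytokine was thus at nearly the same signal in both genotypes where Il1b differed most.

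Between genotypes, 1 of 18 genes of this list was called under lipid A (Serpinb1a, higher in KO), beside 1.28% of all genes higher and 0.657% lower. Under vehicle 2 of 18 were higher (Serpinb1a and P2rx7) and 1 lower (Panx1), beside 1.20% and 0.621%. Serpinb1a, an inhibitor of neutrophil proteases and of inflammatory caspases, gave 2131 for KO lipid A, 144 for WT lipid A, 3226 for KO vehicle and 199 for WT vehicle, 14.8-fold higher in KO with lipid A and 16.2-fold with vehicle. P2rx7, the ATP receptor that triggers release of interleukin-1β, gave 4016 for KO lipid A, 1405 for WT lipid A, 4753 for KO vehicle and 1435 for WT vehicle, or 2.86-fold (lipid A, under the threshold) and 3.31-fold (vehicle) above WT. Panx1, a channel that lets ATP out of cells, gave 404 for KO lipid A, 1055 for WT lipid A, 289 for KO vehicle and 1070.3 for WT vehicle, or 2.61-fold (lipid A, under the threshold) and 3.71-fold (vehicle) below WT. For 0 of 18 did the response differ over 3-fold between KO and WT, beside 1.02% of all genes with a larger and 1.66% with a smaller response in KO. The median log2 difference under lipid A was -0.01. The differences of these 3 genes were of like size with and without lipid A, as were those of the resident macrophage markers, and the part of those cells was not tested.

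Receptor signaling genes, 17 of 19 with a probe set and compared, gave 0 calls in either direction between KO and WT under lipid A, under vehicle and for the response, with a median log2 difference of 0.05 under lipid A. As few of all genes were called (1.28% higher and 0.657% lower under lipid A), 0 of 17 is near the background and is no result about the list. With lipid A 5 were over 2-fold higher (Myd88, Irak3, Tab2, Map3k8 and Peli1) and 5 lower (Irak1, Tab1, Map3k3, Peli2 and Ecsit) in KO, beside 5.65% and 9.78% of all genes. In WT 3 were higher (Myd88, Irak3 and Peli1) and 2 lower (Irak1 and Peli2), beside 5.70% and 3.77%. Of these, Tab1, Tab2, Irak1, Map3k3, Ecsit and, for KO, Myd88 were named after their values were seen. Myd88, the adaptor of the interleukin-1 receptor and TLR4, gave 5755 for KO lipid A, 5750.3 for WT lipid A, 2361 for KO vehicle and 1884 for WT vehicle and was almost equal between the genotypes under lipid A. Peli1, a ubiquitin ligase that acts on the Irak kinases, was 6.09-fold higher with lipid A than vehicle in KO and 6.69-fold in WT. Irak3, a kinase homologue that restrains the pathway, rose 5.21-fold from vehicle to lipid A in KO and 2.16-fold in WT. Its signals were 2244 for KO lipid A, 1936 for WT lipid A, 431 for KO vehicle and 896 for WT vehicle. The genotypes thus differed by only 1.16-fold with lipid A, whereas with vehicle KO was 2.08-fold below WT. Peli2 fell 4.27-fold from vehicle to lipid A in KO and 2.65-fold in WT. Of the 17, Map3k8, the kinase upstream of ERK in macrophages, had the widest gap between genotypes under lipid A, with 1944 for KO lipid A, 939.6 for WT lipid A, 486 for KO vehicle and 636 for WT vehicle, or 2.07-fold.

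Transcription factors and mRNA decay factors known to act on interleukin-1 genes, 16 of 17 with a probe set, held a few genotype differences. Under lipid A 2 of 16 compared were over 3-fold higher in KO (Zfp36l1 and Zc3h12a) and 1 lower (Fos), beside 1.28% of all genes higher and 0.657% lower. Their median log2 difference was 0.37. With lipid A 5 were over 2-fold higher and 1 lower in KO, beside 5.65% and 9.78% of all genes. In WT 4 of 15 compared were higher and 0 lower, beside 5.70% and 3.77%. Zc3h12a, the RNase Regnase-1 that degrades cytokine mRNA, gave 2292 for KO lipid A, 674 for WT lipid A, 163 for KO vehicle and 322 for WT vehicle. It was 3.40-fold higher in KO than in WT under lipid A and 1.98-fold lower under vehicle, the same change of order between treatments as for Il1a. Zfp36l1, of the family that binds AU-rich elements, gave 996 for KO lipid A, 260.3 for WT lipid A, 1378 for KO vehicle and 477 for WT vehicle, 3.82-fold higher in KO than in WT under lipid A and 2.89-fold under vehicle. Fos, a subunit of AP-1, gave 243 for KO lipid A, 786 for WT lipid A, 3639.6 for KO vehicle and 1416 for WT vehicle. It was 15.0-fold lower with lipid A than vehicle in KO and 1.80-fold lower in WT, and the KO signal was 3.23-fold below WT under lipid A and 2.57-fold above WT under vehicle. Rela, the p65 subunit of NF-κB, was named after its values were seen and gave 6429 for KO lipid A, 5955 for WT lipid A, 2917 for KO vehicle and 2767 for WT vehicle, 1.08-fold higher in KO than in WT under lipid A. Irf4, a factor of lymphocytes and of some macrophages, gave 215 for KO lipid A, 9.48 for WT lipid A, 200.0 for KO vehicle and 24.2 for WT vehicle. It was the one gene of the list over 3-fold different under vehicle, at least 3.07-fold higher in KO, beside 1.20% of all genes higher and 0.621% lower. B cell markers were higher on that array too, and their part was not tested.

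**Figure D5:**
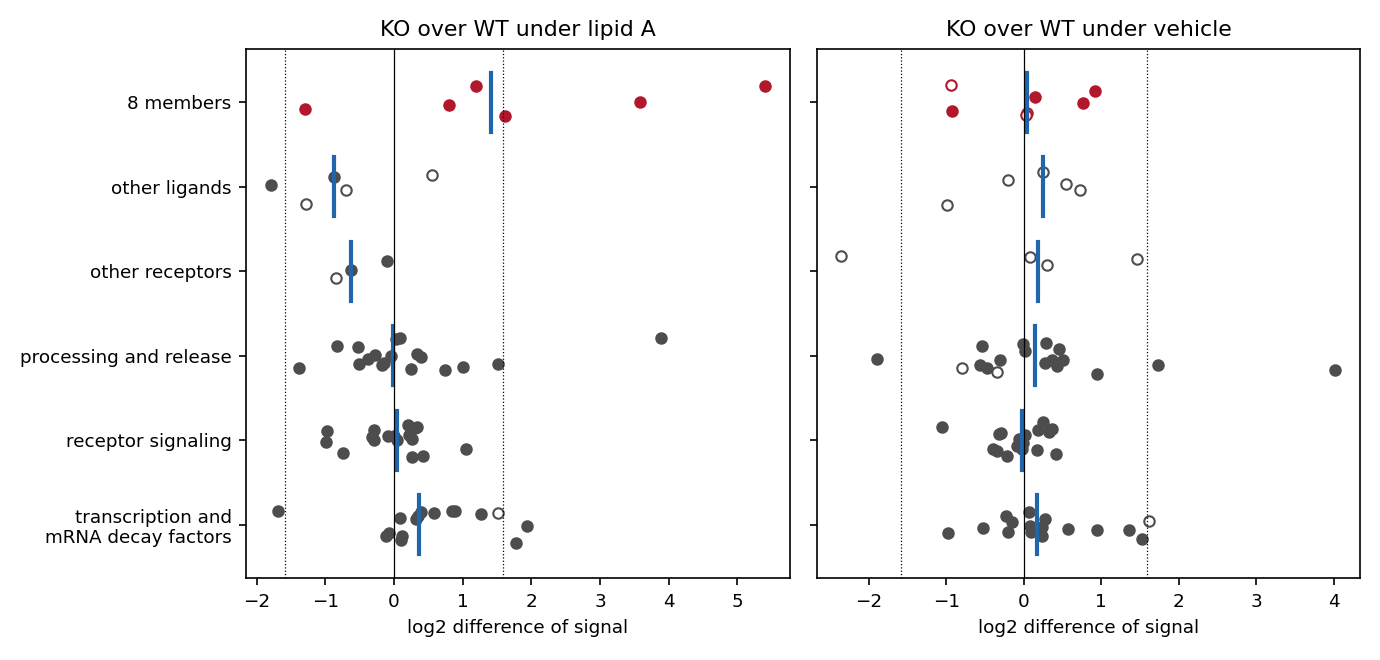
Log2 difference of KO over WT under lipid A and under vehicle for the members compared (red) and for each list of further genes of the pathway (dark grey), with weak signals raised to the array median. Open symbols are bounds or have no fold, the blue bar is the median of each row, and dotted lines mark 3-fold. Il1b and Il1a lie beyond the other rows under lipid A, apart from Serpinb1a at 3.89 in the row of processing and release.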

How the data were processed

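RNA of macrophages from KO and WT mice, with lipid A or vehicle, was measured on 4 Affymetrix arrays, 1 per condition. The authors deposited probe set intensity values on a linear scale, one table for the 4 arrays, made with software not given in the sources used here. A scaling of each whole array was inferred from the mean after trimming 2% at each end, which was 500.0 on every array. Equal means do not make weak signals comparable, and the number of arrays limits the precision.

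Of 45101 probe sets, 64 controls were left out. The platform annotation gave 1 symbol to 34945, several to 932 and none to 9160, and 34741 of the first matched a gene number in the RefSeq table. Names of the lists were matched through RefSeq synonyms. Signals were log2-transformed without further scaling and compared as described above, at the fold thresholds of the paper. Its detection and change calls were not used here. The step that counts calls was tested on simulated data with known folds. Its noise was smaller than the spread between probe sets of a gene here, and folds were planted only in genes well above the median. It thus checks the code and not how reliable the calls are, above all for weak signals.

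The members and gene lists were chosen with earlier results of these data known. Named genes are the 8 members, up to 4 genes per list, those of the largest difference in a comparison, the nearest measured genes on each side and the closest patterns, and genes outside this rule are marked. Alternatives covered scaling, signals near background, the probe set of a gene and the thresholds. Python 3.11.15, numpy 2.4.6, pandas 2.3.3 and matplotlib 3.10.9 were used.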

Additional observations from a re-analysis of the deposited data

Results flagged for a closer look

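Il1a had opposite differences between the genotypes on the 2 treatments. The log2 difference of KO over WT was 3.58 under lipid A and -0.93 under vehicle, a gap of 4.51. Fos, a gene of the list of transcription factors, had the reverse order, with -1.69 under lipid A and 1.36 under vehicle, a gap of -3.06. Members were flagged where both differences exceeded the largest technical SD, and genes of the lists only where both exceeded 2-fold. Smaller changes of order in the lists are thus left out, such as that of Zc3h12a, with 1.77 under lipid A and -0.98 under vehicle. With 1 array in each group none of these differences between treatments was tested.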

How the results depend on the processing

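No paired analysis was possible because each group had 1 array and the labels give no replicate numbers, and for the same reason no replicate could be left out. Among the counts of members under the alternatives, 101 stayed within 1.5 times the reported count and 9 did not. With signals taken as measured and the higher at or above its median, 1 gene was over 2-fold lower with lipid A in WT (Il1r2) and 3 were over 3-fold lower in KO under vehicle (Il1b, Il18bp and Il1r2). With no filter these counts were 1 and 4 (also Il1r1), and with signals raised to the 25th percentile 1 and 3. Of all genes, 1084 of 12129 and 438 of 12002 were lower in these 2 comparisons as measured. With no filter it was 2699 and 1539 of 18193 genes, and with the 25th percentile 1880 of 16448 and 409 of 16423. The weak vehicle signals thus decide whether members were lower in KO before lipid A. With every signal required to reach its median, the response was over 3-fold larger in KO for 1 gene (Il1a), since Il1b then has no value. The same held for 86 of all 9047 genes compared so. At thresholds of 1.5-fold for lipid A and 2-fold between genotypes, 5 members were higher with lipid A in WT and 1 was lower in KO under lipid A (Il18bp). At these thresholds 1604 of 12143 genes were higher with lipid A in WT, and 483 of 12335 were lower in KO under lipid A. No called value changed sign. Of the values of single members under the alternatives, 257 moved by less than the technical SD and 31 by more. The 257 include values that an alternative could not change, such as those of strong signals when weak signals are treated otherwise. Over the alternatives, log2 KO over WT under lipid A lay between 5.26 and 5.40 for Il1b, 3.44 and 3.58 for Il1a, and 1.49 and 1.62 for Il1rn, and for Il1rap between -0.33 and 0.80 with the probe set used. Il1b and Il1a have 1 probe set each and strong signals on both arrays. Only the scalings could move their values, so the narrow ranges say nothing of mice or arrays.

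Scaling moved the median of all genes by 0.15 in KO, -0.20 in WT, -0.37 between genotypes under vehicle and 0.35 for the response when arrays were centred on their medians, by 0.15, -0.08, -0.26 and 0.22 with quantile normalization, and by -0.12, -0.05, -0.07 and -0.07 with division by Rplp0, which moved KO over WT under lipid A by -0.14. The split of all genes into higher and lower calls moved with it. For KO lipid A over KO vehicle it was 895 and 863 with centring, against 695 and 1203 as reported, for WT lipid A over WT vehicle 485 and 835 against 692 and 458, for KO over WT under vehicle 70 and 145 against 145 and 75, and for the response 286 and 70 against 138 and 225. Quantile normalization gave 87 and 85 under vehicle and 187 and 149 for the response, and Rplp0 gave 123 and 132 under lipid A, against 158 and 81. Signals as measured gave 1378 and 1966 in KO, 1429 and 1084 in WT, 783 and 707 between genotypes under lipid A, 754 and 438 under vehicle and 1119 and 1471 for the response, so the share of genes called depends on how weak signals are treated. Signals near the array median limit Il18bp, Il1r1 and Il1r2 above all.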
